A study of Danio rerio with 2 samples.

Results

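The genes described here are the collagen, laminin and integrin genes of the zebrafish, together with the fibronectin, nidogen and *sparc* genes, and their expression was followed across the pituitary of female fish with and without *gnrh3*. The families were chosen with earlier results of these data known, but the rule itself used no measured value. Genes were taken by symbol from the integrated gene list, as every symbol that begins with fn1 or sparc or with a family stem. The stems were col, lama, lamb, lamc, itga, itgb and nid, each followed by a number or letter of the family. This gave 110 of 25432 genes: 15 chains of fibrillar collagens, 6 chains of basement membrane (type IV) collagen, 34 chains of other collagens, 13 laminin chains, 9 genes for nidogens, fibronectin and *sparc*-like proteins, 19 integrin alpha subunits and 12 integrin beta subunits. The remaining 2, *itgbl1* and *itgb1bp1*, carry an integrin symbol but do not encode a receptor subunit.

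Collagens, laminins, nidogens and fibronectin are secreted proteins that assemble outside the cell into fibrils and into basement membranes, the thin sheets that separate the cords and follicles of pituitary hormone cells from the vessels. Integrins are heterodimers of an alpha and a beta subunit in the plasma membrane, and the pairing decides whether a cell binds collagen, laminin or fibronectin. In vertebrate tissues most matrix is made by fibroblasts, mural cells and endothelium, whereas epithelial and endocrine cells contribute basement membrane chains and carry the receptors.

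The data came from single-cell RNA sequencing of 3-month-old, sexually mature females collected 1 h before lights on. One genotype was *gnrh3*-/-, which lacks the gene for gonadotropin-releasing hormone 3, and the other was WT, its *gnrh3*+/+ siblings. For each genotype 5 pituitaries were pooled, dissociated with trypsin and collagenase, and made into 1 droplet library, so no replicate check of a genotype difference was possible, no test was run, and genotype cannot be told apart from library. All intervals are exact 95% intervals and cover counting error alone. *gnrh3* itself had 1 UMI (a unique molecular identifier, which marks 1 captured transcript) in the cells of each library, too few to check the genotype.

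The depositors' annotation was used for the cell types, and 13 of its 14 types are described. They held 1955 WT and 4456 *gnrh3*-/- cells with 20698732 and 31924001 UMIs. The median cell over all types had 6961 UMIs in WT and 5368 in *gnrh3*-/-, and 1 cell barcode occurred in both libraries. The 3 types without a hormone name were small: *her6*+ cells (37 WT and 64 *gnrh3*-/- cells), *isl1*+ cells (19 and 39) and undetermined cells (11 and 17). In what follows a level is the UMIs of a gene per 10000 UMIs counted in the cells of that type and library. UMIs count transcript ends, so that a level needs no division by transcript length, although capture can differ between genes. Where paired values are joined by "and" with no genotype named, WT comes first.

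Of the 110 genes, 10 had no UMI in any cell, 90 had at least 1 UMI in the 13 types, and 33 reached 100 UMIs over all cells. The 110 genes had 21844 UMIs over all cells, of which 13192 (60.4%) lay in the 13 types. Within the 13 types the 4 most abundant members held 43.4% of the member UMIs. The share that lay in the 13 types differed between classes. It was 85.6% for other collagens, 83.2% for laminins, 81.6% for integrin alpha and 70.3% for fibrillar collagens, but 53.3% for integrin beta, 27.2% for basement membrane collagens and 25.7% for nidogens, fibronectin and *sparc*. Thus *itgb1a* kept 984 of its 1003 UMIs and *lama5* 2421 of 2685, whereas *itgb4*, the hemidesmosome subunit, kept 59 of 1214, *nid2a* 79 of 811 and *col4a1* 74 of 515. The rest of these UMIs lay in cells not analysed here, and statements on the highest type below refer to the 13 types.

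The summed level of all members was highest in *her6*+ cells, at 33.0 in WT and 26.2 in *gnrh3*-/-. These cells were 1.89% and 1.44% of the cells of the 13 types and held 12.9% and 11.7% of their member UMIs. Undetermined cells followed with 5.88 and 7.87, then somatolactotropes alpha with 5.61 and 4.83 and lactotropes with 4.80 and 3.76. LH gonadotropes had 3.46 and 3.62 and FSH gonadotropes 1.84 and 1.59. Somatotropes alpha were lowest with 0.719 and 0.792. LH gonadotropes were 11.9% and 13.5% of the cells and held 23.1% and 25.5% of all member UMIs. FSH gonadotropes, with 11.8% and 17.8% of the cells, held 11.6% and 15.4%. These shares are not corrected for depth, which differed by type. Of the 20698732 and 31924001 UMIs of the 13 types, LH gonadotropes had 3805265 and 5263877 and FSH gonadotropes 3580132 and 7243091.

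**Figure D1:**
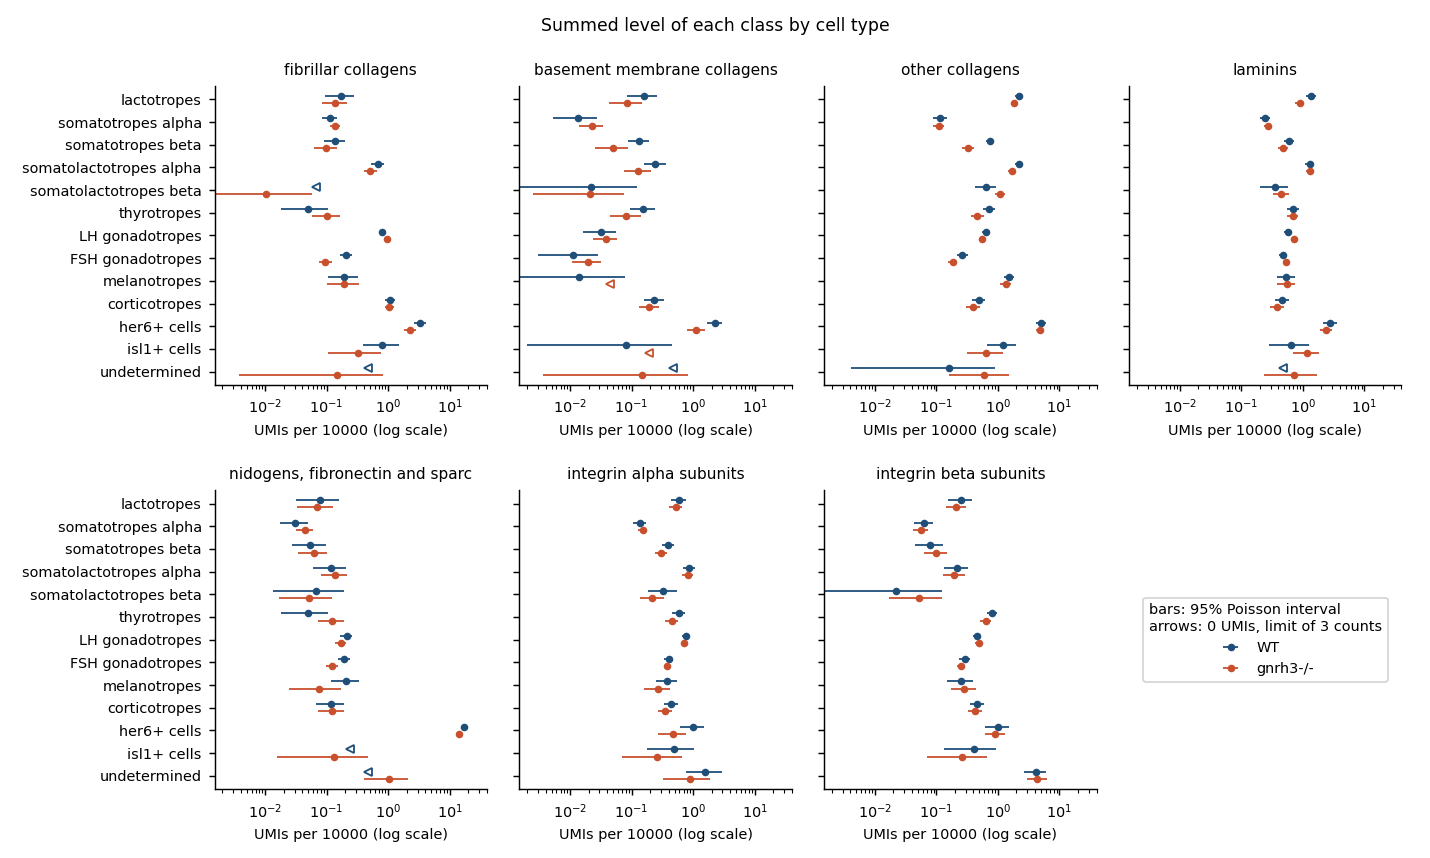
Summed level (UMIs per 10000, log axis) of each of the 7 classes in the 13 cell types, with WT and *gnrh3*-/- as separate points, bars as exact 95% Poisson intervals, and arrows at the limit of 3 counts where a class had no UMI. *her6*+ cells were at the top for all 5 matrix classes and undetermined cells for both integrin classes, in both libraries.

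The 5 matrix classes were each highest in *her6*+ cells in both libraries, and the 2 integrin classes in undetermined cells. In *her6*+ cells nidogens, fibronectin and *sparc* reached 17.1 and 14.1, other collagens 5.09 and 4.81, fibrillar collagens 3.33 and 2.30, laminins 2.75 and 2.36, and basement membrane collagens 2.25 and 1.13. In undetermined cells integrin beta subunits reached 4.13 and 4.37 on 26 and 30 UMIs, and integrin alpha subunits 1.59 and 0.875 on 10 and 6 UMIs. In *gnrh3*-/- somatolactotropes alpha were close for integrin alpha, at 0.813, and were the highest type without doublets, without the cell with the most UMIs, and with levels averaged over cells. The second type differed by class: corticotropes for fibrillar collagens (1.08 and 1.05), lactotropes for other collagens (2.17 and 1.85), and thyrotropes among the hormone types for integrin beta (0.806 and 0.629).

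The label of the *her6*+ cells was checked against marker genes. *her6*, a Hes-family transcriptional repressor of progenitor cells, had 117 UMIs in WT and 327 in *gnrh3*-/- (levels 5.27 and 9.76). The summed level of 21 endothelial markers was 0.180 and 0.448, with 2 and 6 of them detected and *cdh5* at 0 and 1 UMIs. Of 19 mural cell and fibroblast markers 6 and 5 were detected, with a summed level of 10.5 and 8.54, led by *myl9a* (2.61 and 2.84) and *pdgfrb* (2.61 and 1.82), while *acta2* was at 0 in both libraries. Glia and pituicyte markers summed to 33.7 and 21.1 (9 and 10 of 14 detected), with *fabp7a* at 15.4 and 6.57, and epithelial and progenitor markers, a list led by *her6* itself, to 18.1 in WT. Immune markers stood at 1.22 and 0.776, neuron markers at 1.31 and 1.46, erythrocyte markers at 0 and 0.0299 and thrombocyte markers at 0.360 and 0.149. The cells therefore carried *her6* as named, and beside it glial and mural markers, and they keep the name of the depositors' annotation here. Hormone genes of other types made up 0.0896% of their UMIs in WT and 5.86% in *gnrh3*-/-, and *sparc* is therefore also given below without the cells concerned. Undetermined cells had immune markers at 250 and 246 (18 and 19 of 20 detected), and *isl1*+ cells had *isl1* at 6.50 and 6.68.

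**Figure D2:**
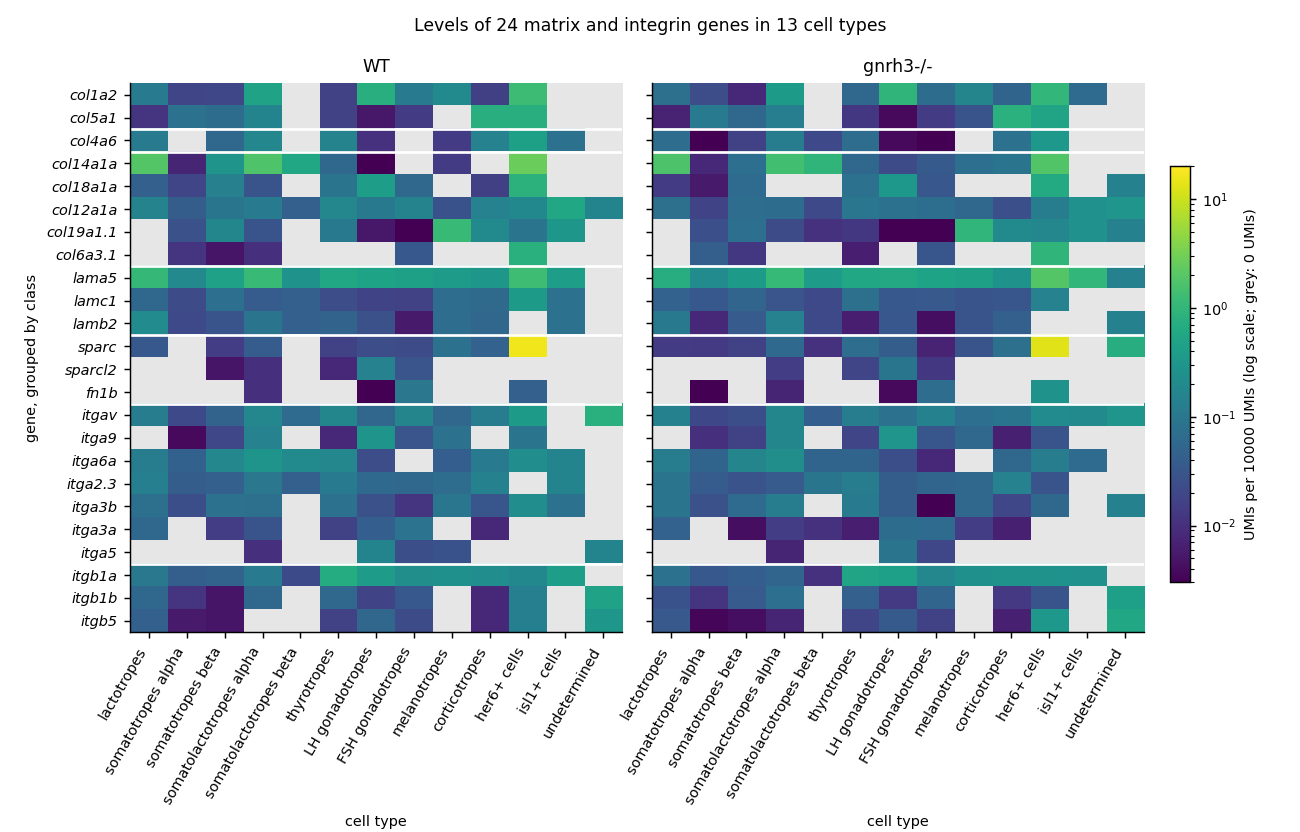
Levels of the 24 members with at least 100 UMIs in the 13 types (rows), by cell type and library (columns, WT beside *gnrh3*-/-), as UMIs per 10000 on a log colour scale, with grey for 0 UMIs. *sparc* stands out in *her6*+ cells, *col1a2* in *her6*+ cells and LH gonadotropes, *col14a1a* in *her6*+ cells, lactotropes and somatolactotropes, and *lama5* is present throughout.

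Of these 24 members, 8 were highest in *her6*+ cells in both libraries: *col14a1a*, *col18a1a*, *col1a2*, *col4a6*, *col6a3.1*, *lama5*, *lamc1* and *sparc*. Among 11216 genes with at least 100 UMIs in the 13 types, 7.75% were highest there in both libraries. With hormone genes left out of the totals 5 of the 8 members were still highest there, without *col14a1a*, *col1a2* and *lama5*. LH gonadotropes were the highest type for *itga5*, *itga9* and *sparcl2* (background 1.88%) and undetermined cells for *itgav*, *itgb1b* and *itgb5* (6.14%). In undetermined cells these rested on few UMIs: 5 and 2 of *itgav*, 3 and 3 of *itgb1b*, and 2 and 4 of *itgb5*. The levels of *itgav* in *gnrh3*-/- (0.292) and *itgb5* in WT (0.318) were below the limits of 3 counts there (0.437 and 0.476). Single members were highest in somatolactotropes alpha (*itga6a*, 5.96%), thyrotropes (*itgb1a*, 2.44%), melanotropes (*col19a1.1*, 0.918%) and corticotropes (*col5a1*, 4.15%). The other 6 types had no such member. Some members reached 100 UMIs only with the UMIs of their highest type. These were *itga5* and *sparcl2* in LH gonadotropes, *col6a3.1* in *her6*+ cells and *itgb5* in undetermined cells. The counts of highest types are therefore a description. With hormone genes left out of the totals, *itga6a* was higher in somatotropes beta than in somatolactotropes alpha in both libraries.

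*sparc* (ENSDARG00000019353), a secreted collagen-binding glycoprotein, was the most abundant member over all cells and, within the 13 types, concentrated in *her6*+ cells. It had 366 UMIs in WT, a level of 16.5 (14.8 to 18.3), and 451 in *gnrh3*-/-, a level of 13.5 (12.3 to 14.8). It was detected in 36 of 37 and 59 of 64 of these cells, and no single cell held more than 8.47% and 8.43% of the UMIs. The next type was at 0.0827 in WT (melanotropes) and 0.729 in *gnrh3*-/- (undetermined cells). After each cell was thinned to 2000 UMIs, 31 of 33 WT and 45 of 50 *gnrh3*-/- *her6*+ cells still had a *sparc* UMI, against 0% and 0.838% of LH gonadotropes. *her6*+ cells held 89.9% and 84.5% of the *sparc* UMIs of the 13 types, although 77.1% of all *sparc* UMIs lay outside the 13 types.

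Of the other glycoproteins in the class, the nidogens, which link laminin to type IV collagen, were sparse. *nid2a* had 0 and 2 UMIs in *her6*+ cells, and *nid1b* had 3 and 0. *sparcl2* was a gene of LH gonadotropes, with 56 and 48 UMIs (levels 0.147 and 0.0912), 80.0% and 77.4% of its UMIs in the 13 types. *fn1b*, a fibronectin gene, had 35 and 51 UMIs in FSH gonadotropes (0.0978 and 0.0704) and 1 and 2 UMIs in LH gonadotropes. *fn1b* was therefore spread in the opposite way to *sparcl2* between the gonadotropes, although *her6*+ cells had 1 and 9 *fn1b* UMIs and were higher than FSH gonadotropes in *gnrh3*-/- (0.269).

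Among the fibrillar collagens, *col1a2* (ENSDARG00000020007), which encodes the alpha 2 chain of type I collagen, was highest in *her6*+ cells, with LH gonadotropes next. Other hormone types carried it too. With hormone genes left out of the totals, somatolactotropes alpha were at 0.500 and 0.384 and melanotropes at 0.325 and 0.272, against 0.973 and 1.12 in LH gonadotropes. LH gonadotropes had 298 and 494 UMIs, levels of 0.783 (0.697 to 0.877) and 0.938 (0.858 to 1.02), and *her6*+ cells had 28 and 34 UMIs, levels of 1.26 and 1.02. FSH gonadotropes had 41 and 49 UMIs, 0.115 and 0.0677. LH gonadotropes were therefore 6.84-fold (4.92 to 9.73) higher than FSH gonadotropes in WT and 13.9-fold (10.3 to 19) higher in *gnrh3*-/-. Of the 41 WT UMIs of FSH gonadotropes, 14 came from 1 cell, described below. Leaving that cell out would raise the WT fold, which was not recomputed. The *col1a2* UMIs of LH gonadotropes were spread over 128 of 232 WT cells (55.2%) and 241 of 603 *gnrh3*-/- cells (40.0%), with at most 9 and 11 in a cell. At 2000 UMIs per cell 16.5% and 14.6% of LH gonadotropes had a *col1a2* UMI, against 3.48% and 1.17% of FSH gonadotropes.

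The partner chains of type I collagen did not share this pattern. *col1a1a* had 0 UMIs in LH gonadotropes of both libraries and *col1a1b* had 1 and 0, against which *col1a2* was at least 99.3-fold higher than *col1a1a* in WT and at least 165-fold higher in *gnrh3*-/-, with *col1a1a* set at the limit of 3 counts per library. Somatolactotropes alpha showed the same imbalance, with 49 *col1a2* UMIs in each library and 0 of *col1a1a*. In *her6*+ cells *col1a1a* had 6 and 3 UMIs, so that *col1a2* was 4.67-fold (1.90 to 13.8) higher than *col1a1a* in WT and 11.3-fold in *gnrh3*-/-. Most *col1a1a* and *col1a1b* UMIs lay outside the 13 types (86.3% and 88.1%), against 18.8% for *col1a2*. The genes next to *col1a2* in the RefSeq gene order, *bet1* and *casd1*, were highest in other types, thyrotropes and melanotropes.

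**Figure D3:**
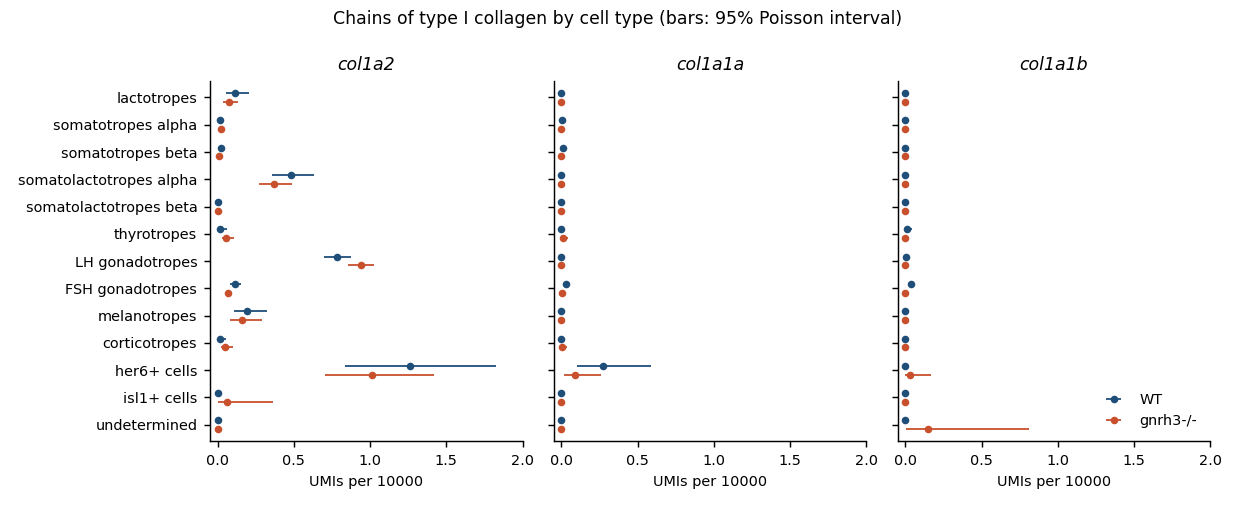
Levels (UMIs per 10000) of *col1a2*, *col1a1a* and *col1a1b* by cell type, with points for the libraries and bars as exact 95% Poisson intervals. Types with 0 UMIs are drawn as points at 0. *col1a2* is at 0.783 and 0.938 in LH gonadotropes, where *col1a1a* had no UMI and *col1a1b* 1 UMI over both libraries.

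In FSH gonadotropes of WT a single cell held 43 fibrillar collagen UMIs: 14 of *col1a1b*, 14 of *col1a2*, 10 of *col1a1a* and 5 of *col5a1*. The cell had 34135 UMIs, with 14840 of *gh1* (growth hormone) and 206 of *fshb*. With it the fibrillar class in FSH gonadotropes was 0.207 in WT and 0.0953 in *gnrh3*-/-, a log2 ratio of *gnrh3*-/- over WT of -1.12 (-1.61 to -0.62); without it WT was 0.0874 and the ratio 0.12 (-0.51 to 0.78).

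*col5a1*, a chain of the minor fibrillar collagen V that starts type I fibrils, was highest in corticotropes, with 100 and 127 UMIs (0.786 and 0.816) and 50.3% and 44.1% of its UMIs in the 13 types. *her6*+ cells were close, with 17 UMIs in each library (0.766 and 0.508). Somatotropes alpha, with more cells, were at 0.0797 and 0.108. At 2000 UMIs per cell 16.4% of WT and 12% of *gnrh3*-/- corticotropes had a *col5a1* UMI.

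Type IV collagen, the network former of basement membranes, was low in hormone cells. In *her6*+ cells *col4a1* had 19 and 12 UMIs (0.856 and 0.358) and *col4a2* 13 and 12 (0.585 and 0.358), and *col4a5* had 8 and 3. *col4a6* was the member that hormone types also carried, with 18 and 16 UMIs in somatolactotropes alpha (0.176 and 0.120), 19 and 11 in thyrotropes, 19 and 13 in corticotropes, and 10 and 11 in *her6*+ cells (0.450 and 0.328). Its UMIs in the 13 types were 166 of 357.

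Among the other collagens *col14a1a* (ENSDARG00000005762), a fibril-associated collagen, was carried among hormone types by prolactin and somatolactin cells. Lactotropes had 168 and 245 UMIs (1.88 and 1.70), somatolactotropes alpha 178 and 185 (1.74 and 1.39), and somatolactotropes beta 26 and 92 (0.572 and 0.955). *her6*+ cells had 59 and 61 UMIs (2.66 and 1.82). By contrast LH gonadotropes had 1 and 12 UMIs and FSH gonadotropes 0 and 26, and *isl1*+ and undetermined cells had none. Somatotropes beta were between, at 0.284 and 0.0739, and somatotropes alpha had 4 and 7 UMIs. At 2000 UMIs per cell a *col14a1a* UMI was present in 27.8% and 24.8% of lactotropes and in 28.7% and 21.6% of somatolactotropes alpha.

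*col19a1.1*, the second of a pair of genes with the *col19a1* symbol and a fibril-associated collagen, was a gene of melanotropes, with 83 and 67 UMIs (1.14 and 0.995) and 45.4% and 42.4% of its UMIs. Corticotropes, which express the same hormone precursor gene *pomca*, had 26 and 30 UMIs (0.204 and 0.193). At 2000 UMIs per cell a UMI of the gene was present in 20.2% and 17% of melanotropes, against 4.92% and 2.33% of corticotropes. The pattern therefore held at equal depth.

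*col18a1a*, a basement membrane collagen whose end fragment is endostatin, was like *col1a2* highest in *her6*+ cells, with LH gonadotropes next. *her6*+ cells were at 0.856 and 0.657, and LH gonadotropes at 0.399 and 0.323 on 152 and 170 UMIs, 61.0% and 67.2% of its UMIs. Unlike *col1a2*, it had 3 and 0 UMIs in somatolactotropes alpha and none in melanotropes, while somatotropes beta had 28 and 16 (0.137 and 0.0657). LH gonadotropes were 7.15-fold (4.47 to 12) higher than FSH gonadotropes in WT and 9.75-fold (6.33 to 15.6) in *gnrh3*-/-. *col12a1a* (ENSDARG00000078322), another fibril-associated collagen, was instead low and broad, with UMIs in all 13 types of both libraries. FSH gonadotropes had 55 and 53 UMIs (0.154 and 0.0732), LH gonadotropes 40 and 43 (0.105 and 0.0817) and *isl1*+ cells 7 and 4 (0.562 and 0.259). In *gnrh3*-/- undetermined cells were highest at 0.292, which was below their limit of 3 counts (0.437). *col6a3.1*, a type VI collagen chain and the second gene with its symbol, was at 0.811 and 0.955 in *her6*+ cells on 18 and 32 UMIs.

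Laminin expression in the 13 types was mainly that of *lama5* (ENSDARG00000058543), the alpha 5 chain of epithelial and vascular basement membranes. It was found in all hormone types, from 0.188 and 0.212 in somatotropes alpha to 1.18 and 1.11 in somatolactotropes alpha (120 and 147 UMIs). *her6*+ cells were at 1.31 and 1.88 (29 and 63 UMIs). With hormone genes left out of the totals, somatotropes alpha were at 0.498 and 0.535, and corticotropes were the lowest hormone type at 0.406 and 0.363. The highest hormone type was then lactotropes in WT (1.39) and somatolactotropes alpha in *gnrh3*-/- (1.15). LH and FSH gonadotropes were close, at 0.491 and 0.606 against 0.444 and 0.489, a 1.11-fold (0.891 to 1.38) difference in WT and a 1.24-fold (1.06 to 1.45) difference in *gnrh3*-/-. A laminin molecule needs an alpha, a beta and a gamma chain, and the partner chains were far lower: *lama5* was 26.7-fold and 17.7-fold higher than *lamc1*, the common gamma chain, in LH gonadotropes, and 30.0-fold and 36.8-fold higher in somatolactotropes alpha. In *her6*+ cells the excess was 3.63-fold in WT and 12.6-fold in *gnrh3*-/-, where *lamc1* had 8 and 5 UMIs. The beta chains also differed by type. *lamb1a* had 11 and 4 UMIs in *her6*+ cells, where *lamb2* had none, and *lamb2* had 19 and 15 UMIs in lactotropes and 9 and 20 in somatolactotropes alpha.

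Integrins of the hormone types were led by *itgb1a* (ENSDARG00000071863), the beta 1 subunit that pairs with most alpha subunits. Thyrotropes had the highest level, 0.692 (0.553 to 0.856) in WT and 0.515 (0.409 to 0.640) in *gnrh3*-/-, on 85 and 81 UMIs. LH gonadotropes had 143 and 225 UMIs (0.376 and 0.427), FSH gonadotropes 83 and 126 (0.232 and 0.174), melanotropes 18 and 17 (0.248 and 0.252) and corticotropes 29 and 41 (0.228 and 0.264). Somatotropes, lactotropes and somatolactotropes were all at or below 0.108. FSH gonadotropes, melanotropes and corticotropes were neighbours in the order of levels and changed places between the libraries. LH gonadotropes were 1.62-fold (1.23 to 2.15) and 2.46-fold (1.97 to 3.08) higher than FSH gonadotropes.

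Pooled by hormone family, *itgb1a* was 0.361 (0.322 to 0.404) and 0.307 (0.279 to 0.337) in glycoprotein hormone types, 0.235 and 0.260 in the *pomca* types, and 0.0558 (0.0419 to 0.0728) and 0.0398 (0.0304 to 0.0513) in the growth hormone, prolactin and somatolactin types. Hormone transcripts took between 0.0896% of UMIs in WT *her6*+ cells and 62.3% in WT somatotropes alpha, which lowers every other level in a type. With hormone genes left out of the totals, *itgb1a* was 0.442 and 0.368, 0.332 and 0.371, and 0.108 and 0.0780 in the 3 families. The last family stayed lowest, whereas the *pomca* types were level with the glycoprotein hormone types in *gnrh3*-/-. At 2000 UMIs per cell 11.6% and 10.4% of thyrotropes had an *itgb1a* UMI, against 0.388% and 0.980% of somatotropes alpha. *itgb1a* made up 85.9% and 81.8% of the integrin beta UMIs of thyrotropes and 82.2% and 88.6% of those of LH gonadotropes. Its copy *itgb1b* contributed 11.7% and 21.1% in FSH gonadotropes.

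**Figure D4:**
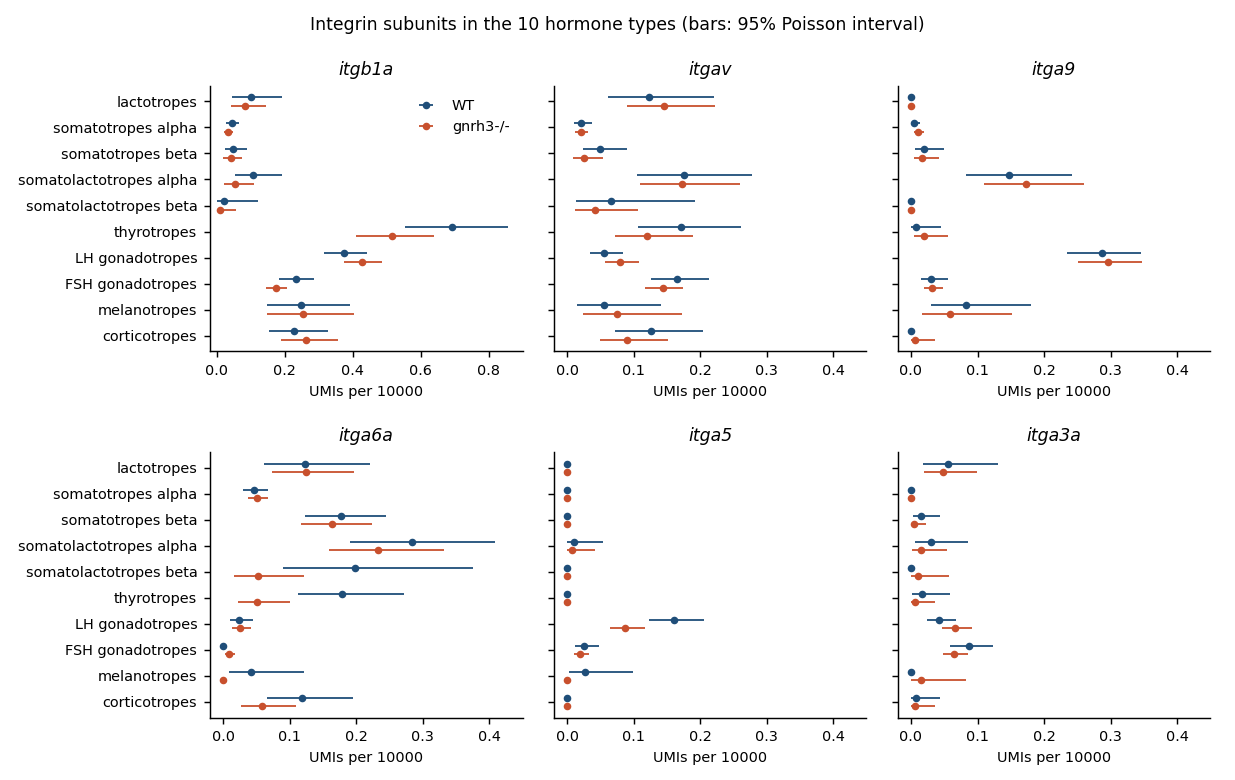
Levels (UMIs per 10000) of *itgb1a*, *itgav*, *itga9*, *itga6a*, *itga5* and *itga3a* in the 10 hormone types, with points for the libraries and bars as exact 95% Poisson intervals. *itga9* and *itga5* are highest in LH gonadotropes, *itgav* and *itga3a* are higher in FSH gonadotropes than *itga9*, and *itga6a* is highest in somatolactotropes alpha.

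The alpha subunits differed between hormone types, the gonadotropes included. *itga9*, which pairs with beta 1, had 109 and 156 UMIs in LH gonadotropes (0.286 and 0.296), 38% and 42.4% of their alpha UMIs, and 11 and 23 UMIs in FSH gonadotropes, a 9.32-fold (5.01 to 19.2) and 9.33-fold (6.00 to 15.2) difference. Somatolactotropes alpha were next to LH gonadotropes for *itga9*, at 0.147 and 0.173. *itga5*, the fibronectin receptor subunit, had 61 and 46 UMIs in LH gonadotropes (0.160 and 0.0874), which were 82.4% and 75.4% of its UMIs in the 13 types. In FSH gonadotropes the leading alpha subunit was *itgav*, which forms receptors for fibronectin and vitronectin, with 59 and 104 UMIs (0.165 and 0.144) and 41.3% and 38.1% of alpha UMIs. The *itgav* level of LH gonadotropes was 0.335 (0.193 to 0.559) and 0.556 (0.379 to 0.802) of that of FSH gonadotropes. *itga3a*, a laminin receptor subunit, was at 0.0866 and 0.0649 in FSH gonadotropes and 0.0420 and 0.0665 in LH gonadotropes, with no common direction between the libraries.

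*itga6a*, the alpha 6 laminin receptor subunit, was highest in somatolactotropes alpha and low in the gonadotropes. Somatolactotropes alpha had 29 and 31 UMIs (0.284 and 0.233) and somatotropes beta 36 and 40 (0.176 and 0.164), where *itga6a* was 45% and 54.1% of alpha UMIs. Thyrotropes had 22 and 8 UMIs (0.179 and 0.0509), corticotropes 15 and 9 (0.118 and 0.0579) and lactotropes 11 and 18 (0.123 and 0.125). Somatotropes alpha were lower, at 0.0456 and 0.0506, and LH gonadotropes had 9 and 13 UMIs and FSH gonadotropes 0 and 6. In corticotropes *itga2.3*, of the alpha 2 collagen receptor family, had 18 and 23 UMIs (0.141 and 0.148), 32.1% and 41.8% of their alpha UMIs. In *her6*+ cells *itgb4* had 11 and 9 UMIs, and *itgb5*, a partner of alpha V, had 3 and 11.

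Several less abundant members, chosen after their values were seen, each had most of their UMIs of the 13 types in 1 type. *itgb2*, the leukocyte beta subunit, had 18 and 19 UMIs in undetermined cells (2.86 and 2.77; 69.2% and 63.3% of their beta UMIs) and at most 1 UMI per library in any other of the 13 types. *itgb6* had 22 and 12 UMIs and *col11a1a*, a fibrillar collagen chain, 35 and 24 in corticotropes. By level, however, *col11a1a* was highest in *isl1*+ cells in WT (0.802) and in corticotropes in *gnrh3*-/- (0.154). *col9a1a*, a chain of collagen IX, had 27 and 23 in thyrotropes, and *col9a3* 23 and 39 in LH gonadotropes. *itga8* in FSH gonadotropes had 5 UMIs in WT and 32 in *gnrh3*-/- (0.0140 and 0.0442).

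Between genotypes, member levels in a type were compared where the gene had at least 100 UMIs over both libraries and 4 in each, which gave 25 pairs of a member and a type, in 11 types. Of these, 10 were higher and 15 lower in *gnrh3*-/-. Intervals lay above 0 for 3 pairs, below 0 for 7, and held 0 for 15. Taken relative to the median ratio of the same type, over all genes with at least 20 UMIs in each library, 3 lay above 0 and 4 below. Rescaling by median ratios raised the values by 0.24 in lactotropes and 0.17 in *her6*+ cells, and moved them by -0.05 in LH gonadotropes. A single pair differed by more than 2-fold, which is 4% of the pairs, against 684 of 30018 pairs (2.28%) over all genes. The share of all genes past 2-fold in a type was 2.7% in lactotropes, 1.56% in somatotropes alpha, 2.36% in somatotropes beta, 1.16% in somatolactotropes alpha, 5.25% in somatolactotropes beta and 2.89% in thyrotropes. It was 1.79% in LH gonadotropes, 1.7% in FSH gonadotropes, 1.71% in melanotropes, 3.9% in corticotropes and 3.55% in *her6*+ cells. With a single pair, the members' share cannot be told from this background.

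The pair past 2-fold was *col12a1a* in FSH gonadotropes, which had 55 UMIs in WT, spread over 41 of 231 cells, and 53 in *gnrh3*-/-, over 51 of 794 cells, a log2 ratio of -1.07 (-1.64 to -0.50). *col12a1a* was lower in *gnrh3*-/- in 8 of the 8 types where it had at least 20 UMIs, from -2.54 to -0.36, and by -0.87 (-1.16 to -0.58) in the 13 types pooled. Among all genes followed in 8 or more types, 2.45% were lower in every one. In droplets without a cell (10 to 100 UMIs) *col12a1a* was also lower in *gnrh3*-/-, at 0.0646 against 0.232 in WT. With the profile of these droplets subtracted, *col12a1a* was still past 2-fold in FSH gonadotropes and still lower in every type with at least 20 UMIs. The share subtracted was estimated at 0.332% and 1.33% of the UMIs of FSH gonadotropes, too small to move the ratio much, so no conclusion is drawn from this step. The part of these droplets' RNA in the cells' values was not otherwise tested. *col4a6* was lower in *gnrh3*-/- in all of its 5 types, *col18a1a* in all 5 and *col19a1.1* in all 4, while *itga9* was higher in all 3; the direction of *col18a1a*, *col19a1.1* and *itga9* was not kept in every type when libraries were rescaled by TMM or by median ratios. Among all genes followed in 3 or more types 5.66% were lower in every one, against 4 of 17 members. This comparison was not matched for the number of types followed. Of the 9720 genes, 5744 were followed in 8 or more types, whereas *col4a6*, *col18a1a* and *col19a1.1* were followed in 5, 5 and 4.

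In LH gonadotropes the highest ratios were those of *lama5*, 0.30 (0.04 to 0.57), and *col1a2*, 0.26 (0.05 to 0.47). The lowest were those of *itga5*, -0.88 (-1.46 to -0.30), and *sparcl2*, -0.69 (-1.28 to -0.11). All 4 intervals exclude 0, and none of the 4 reached 2-fold. Relative to the median ratio of LH gonadotropes the interval of *lama5* holds 0 (-0.01 to 0.52) and that of *col1a2* begins at 0.00, while those of *itga5* and *sparcl2* stay below 0. In FSH gonadotropes *lama5* stood at 0.14 (-0.14 to 0.42) and *itgav* at -0.20 (-0.67 to 0.29), whose intervals hold 0, and *itgb1a* at -0.41 (-0.83 to 0.00). *col1a2*, *col18a1a*, *itga9* and *itgb1a* were higher in LH than in FSH gonadotropes in both genotypes.

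Outside the gonadotropes, *col14a1a* was higher in *gnrh3*-/- in somatolactotropes beta, 0.74 (0.10 to 1.43), and lower in somatolactotropes alpha, -0.32 (-0.63 to -0.02), where the value relative to the median ratio was -0.24 (-0.54 to 0.07). *lama5* was lower in lactotropes, -0.55 (-0.96 to -0.13), where TMM scaling gave -0.29. In *her6*+ cells *sparc* was lower in *gnrh3*-/-, -0.29 (-0.49 to -0.09). The value was -0.15 without cells in which hormone genes of other types exceeded 5% of UMIs, and -0.09 with TMM scaling. Relative to the median ratio of the type it was -0.13 (-0.33 to 0.08), and the interval holds 0. By class, basement membrane collagens in *her6*+ cells had a ratio of -0.99 (-1.64 to -0.35), and with levels averaged over cells they were at 1.94 in WT and 1.27 in *gnrh3*-/-. Fibrillar collagens had a ratio of -0.54 (-1.01 to -0.06), but the direction turned with levels averaged over cells, at 3.10 in WT and 3.36 in *gnrh3*-/-.

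**Figure D5:**
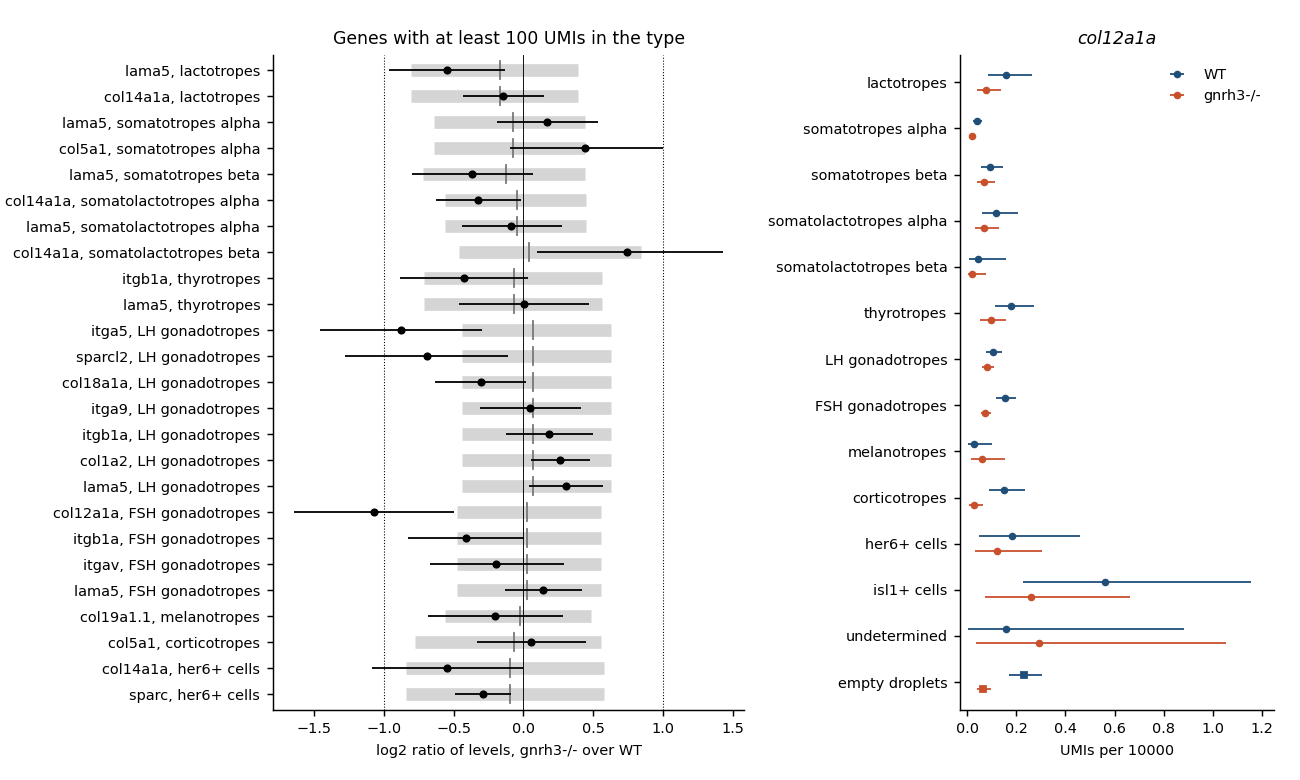
Left, log2 ratios of *gnrh3*-/- over WT for the 25 pairs of a member and a type, with 95% counting intervals; the grey band spans the 5th to 95th percentile of all compared genes of that type, the tick is their median, and dotted lines mark 2-fold. Right, *col12a1a* levels (UMIs per 10000) by type, with squares for droplets without a cell; a single pair, *col12a1a* in FSH gonadotropes at -1.07, lies beyond 2-fold.

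At a lower minimum of 20 UMIs, 125 pairs were compared, of which 44 were higher and 81 lower in *gnrh3*-/-. The share of lower pairs over all genes was not computed. The median ratio of all genes at this minimum was itself below 0 in most types, from -0.20 in lactotropes to 0.08 in LH gonadotropes. Of the 125 member pairs 18 (14.4%) were past 2-fold, 4 higher and 14 lower, against 7.17% of all pairs. With TMM scaling the split was 52 higher and 73 lower, and 14 pairs were past 2-fold, 4 higher and 10 lower. The majority of lower pairs was therefore smaller after rescaling.

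Genes that build and read the matrix were followed by lists chosen with the members. Collagen processing genes (19 of 25 detected in the 13 types) were highest in *her6*+ cells in both libraries for 6 of 10 genes, against the 7.75% of all genes, with a summed level of 11 and 11.3. In this list *p4hb*, a prolyl hydroxylase subunit, was highest in thyrotropes (3.30 and 3.70). *serpinh1b*, the collagen chaperone, reached 1.08 and 2.43 in somatolactotropes beta. *plod3*, a lysyl hydroxylase, was at 0.597 and 0.627 in LH gonadotropes and at 0.561 and 0.511 in FSH gonadotropes. Of 32 compared pairs 6 were past 2-fold, 3 in each direction, against the 2.28% of all pairs. These 6 came from 3 genes, *serpinh1b* in 3 types, *p4ha1b*, a prolyl hydroxylase subunit, in 2, and *bmp1b* in thyrotropes. Other matrix genes (27 of 35) summed to 11.7 and 10.6 in *her6*+ cells, led by *dag1*, the dystroglycan laminin receptor, at 3.69 and 4.90. Of 8 such genes with 100 UMIs or more, 5 were highest in *her6*+ cells in both libraries, against the 7.75% of all genes. None of 20 pairs was past 2-fold.

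Matrix proteases and their inhibitors (16 of 18) were highest in undetermined cells, 41.0 and 18.8, mainly *timp2b* (26.5 and 16.3), while *timp2a* was at 2.12 and 2.18 in *her6*+ cells. Genes of the adhesion complex and tetraspanins (34 of 35), which sit with integrins in the membrane or link them to actin, also peaked in undetermined cells, 37.3 and 28.4. There *cd63* was at 24.9 and 17.5 and *tln1*, the talin that activates integrins, at 2.86 and 3.06. *cd9b* was the leading gene in FSH gonadotropes (4.84 and 3.87). None of 20 and 50 pairs of the last 2 lists was past 2-fold. In these lists, 2 of 6 and 9 of 27 genes with 100 UMIs or more were highest in *her6*+ cells in both libraries. The share over all genes was 7.75%.

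Free RNA could add to low levels. Droplets with 10 to 100 UMIs had a summed member level of 5.29 in WT and 2.84 in *gnrh3*-/-, with *sparc* at 0.822 and 0.211, *lama5* at 1.02 and 0.731, *col1a2* at 0.350 and 0.112 and *col1a1a* at 0.255 and 0.0197. Free RNA was estimated to supply 0.283% to 3.61% of the UMIs of a type, and subtracting it moved none of the 120 member levels beyond their intervals. The estimate left out cells in which hormone genes of other types exceeded 5% of UMIs, and may be too low. In *gnrh3*-/- *her6*+ cells it was 1.24%, where hormone genes of other types made up 5.86% of UMIs over all cells of the type. Markers of other cells in the hormone types were low for endothelium (at most 0.231), immune cells (at most 0.287), erythrocytes (at most 0.148) and thrombocytes (at most 0.0490). Mural and fibroblast markers reached 1.21 and 0.820 in thyrotropes, glial markers 12.8 in each library in somatotropes beta, and neuron markers 12.9 and epithelial and progenitor markers 19 in WT corticotropes; their part in the member levels was not tested.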

How the data were processed

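Pituitary cells of WT and *gnrh3*-/- females were sequenced as 1 library of 5 pooled pituitaries per genotype (10x 3' chemistry). The authors used Cell Ranger 6.0.2 with the GRCz11 genome (the matrix header names version 4) and deposited raw UMI counts. They filtered cells by UMIs, genes and mitochondrial share, and integrated and clustered them in Seurat 4. The deposited integrated gene list, cell types and genotypes were used. Of the 14 types, 1 is not reported here.

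Counts were summed by type and library (Python 3.11.15, scanpy 1.11.5). Levels are per 10000 UMIs, with exact Poisson intervals; ratio and share intervals are Clopper-Pearson. For shares, cells were thinned to 2000 UMIs and shallower cells left out. Genotype ratios required 100 UMIs over both libraries and 4 in each. A doublet caller (Scrublet) marked 7 of 2194 WT cells (0.319%) and 163 of 4794 *gnrh3*-/- cells (3.40%), which were kept. TMM factors came from edgeR 4.0.16; no count test was run. The ratio script was tested on simulated data.

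Members with at least 100 UMIs over all cells could be named, with full values for the 4 most abundant per class, every member past 2-fold, and the 2 highest and 2 lowest ratios of LH and FSH gonadotropes. Values of *itgb2*, *itgb6*, *col11a1a*, *col9a1a*, *col9a3* and *itga8* were given outside this rule, after they were seen. The members and lists were chosen with earlier results of these data known. Repeated symbols carry a suffix (*col19a1.1*, *col6a3.1*). RefSeq gene order was used for names and neighbours. Alternatives tried were other scalings, totals, thinning depths, minimums and cell filters.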

Additional observations from a re-analysis of the deposited data

Results flagged for a closer look

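The genotype ratio of *lama5* differed in sign between types, with counting intervals that exclude 0 on each side before rescaling: its log2 ratio of *gnrh3*-/- over WT was 0.30 in LH gonadotropes and -0.55 in lactotropes. The ratio of *col14a1a* was 0.74 in somatolactotropes beta, -0.32 in somatolactotropes alpha and -0.54 in *her6*+ cells. Relative to the median ratio of the type, over all genes with at least 20 UMIs in each library, some of these intervals hold 0. For *lama5* this was so in LH gonadotropes (-0.01 to 0.52) and in lactotropes (-0.72 to 0.11). For *col14a1a* it was so in somatolactotropes alpha (-0.54 to 0.07) and *her6*+ cells (-0.92 to 0.16) but not in somatolactotropes beta (0.12 to 1.45). With 1 library per genotype, these differences between types were not tested, and the spread between fish that they would have to exceed is unknown.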

How the results depend on the processing

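The type with the highest summed level was the same in both libraries for 7 of 7 classes under 4 of the 7 alternatives for cells and totals. Under the other 3 it was the same for 6, since integrin alpha in *gnrh3*-/- was highest in somatolactotropes alpha without doublets (0.807), with levels averaged over cells (0.823) and without the cell with the most UMIs (0.800). Pairs past 2-fold numbered 1, but 18 with a minimum of 20 UMIs and 4 with a 1.5-fold limit (*col14a1a* in somatolactotropes beta, *sparcl2* and *itga5* in LH gonadotropes, *col12a1a* in FSH gonadotropes). With levels averaged over cells the 1 pair was *col14a1a* in somatolactotropes beta (1.16), since *col12a1a* in FSH gonadotropes moved to -0.88; its ratio ran from -1.08 to -0.88 over the alternatives. Of the 8 members highest in *her6*+ cells, 5 were left with hormone genes out of the totals, where *col1a2* in *gnrh3*-/- was 1.12 in LH gonadotropes and 1.08 in *her6*+ cells, *col14a1a* in *gnrh3*-/- was 2.33 in lactotropes and 1.93 in *her6*+ cells, and *lama5* in WT was 1.39 and 1.31 in these types. Members lower in every type numbered 4, but 2 (*col4a6* and *col12a1a*) with levels averaged over cells, 2 with TMM scaling and 2 with median-ratio scaling. With levels averaged over cells, classes in *her6*+ cells that were lower in *gnrh3*-/- became higher: fibrillar collagens were at 3.10 in WT and 3.36 in *gnrh3*-/-, other collagens at 4.99 and 5.13, and laminins at 2.90 and 2.96. Other collagens also turned without hormone genes in the totals (5.09 and 5.11) and without cells rich in hormone genes of other types (5.09 and 5.17). In FSH gonadotropes the fibrillar ratio turned from -1.12 to 0.12 without 1 WT cell. In *gnrh3*-/- *her6*+ cells nidogens, fibronectin and *sparc* moved to 15.6 without cells rich in hormone genes of other types. Apart from the last value and from totals that lack hormone genes, whose construction raises every level, the cause of these shifts was not tested. Of the 10 member ratios whose intervals exclude 0, none changed sign under 9 alternatives. No paired analysis was possible because there was 1 library per genotype. Depth limits the 3 small types most: the limit of 3 counts in *her6*+ cells is a level of 0.135 in WT and 0.0896 in *gnrh3*-/-, against 0.00788 and 0.00570 in LH gonadotropes.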
